A study of Mus musculus with 6 samples.

Results

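The AP-1 transcription factor genes described here are Fos, Fosb, Fosl1, Fosl2, Jun, Junb, Jund, Maff, Mafk and Atf3, 10 of the 25,899 gene symbols in the deposited count table. They were taken by symbol, with earlier results of these data known, and each was compared between cells given 4-hydroxytamoxifen (4OHT) for 2 h and untreated cells, also clone by clone. The cells were E14tg2a mouse embryonic stem cells on a 129SV background, and all of them, untreated ones included, stably carried a cRAF-ErT2 cassette. This encodes a RAF kinase fused to an oestrogen receptor domain that responds to 4OHT, and the study used it to turn on ERK signalling. Both groups were cultured with serum, LIF and 2 µM Chir99021, a GSK3 inhibitor, then for 24 h with serum, LIF and 250 nM PD173074, which inhibits FGF receptors. The treated cells then received 250 nM 4OHT, and all cells received 5 mM ethynyl uridine for the last 15 min, so that RNA made in that window could be captured by click chemistry and sequenced. Clones named a, b and c gave 1 treated and 1 untreated library each, so there were 3 libraries per group and 6 in all. No library of cells without the cassette, or of cells given solvent alone, was analysed here, so responses to the kinase and to 4OHT itself cannot be told apart.

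AP-1 factors are pairs of basic leucine zipper (bZIP) proteins. FOS proteins cannot pair with each other and bind DNA only with a partner, usually a JUN protein, while JUN proteins also pair among themselves. The small MAF proteins lack an activation domain and work through their partners, among them the CNC family, and ATF3 is a stress-induced subunit that often represses. Several of these genes are classical immediate early genes: ERK phosphorylates ternary complex factors bound with SRF at the Fos promoter, Fos RNA is made within minutes, and FOS proteins are then stabilised by phosphorylation.

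The treated libraries of clones a, b and c held 9,431,819, 8,686,555 and 7,295,334 counts, and the untreated ones held 11,549,152, 12,168,380 and 9,745,747. A count of 3 was worth 0.342 to 0.438 CPM in treated libraries and 0.227 to 0.294 CPM in untreated ones. A count of 0 limits a level to this only for a gene whose reads were kept in the counting, which most genes nested in an intron of another listed gene appear not to have been. Levels in CPM are counts divided by library size and by the TMM factors, which were 0.929 to 0.939 in treated and 1.05 to 1.08 in untreated libraries. Scaling by library size alone moved the median log2 fold change of all genes by -0.20. In bulk libraries, fewer cells with an active gene and less RNA per cell cannot be told apart. Of 10 embryonic stem cell markers, all were tested, 2 were higher (Pou5f1 and Zfp42) and 5 lower (Tdgf1, Sall4, Nanog, Esrrb and Lin28a), with a summed level of 2166 to 2566 CPM in treated and 2943 to 3044 CPM in untreated libraries. Of 16 fibroblast and feeder markers 6 were tested, 2 were higher (Twist1 and Col1a1) and 2 lower (Col5a2 and Pdgfrb, neither of them called by DESeq2 with the clone as a block). Their sum was 33.0 to 36.5 CPM treated and 13.3 to 18 CPM untreated, of which Twist1 gave 18.1 ± 2.02 CPM treated and 0.498 ± 0.320 CPM untreated (SD, n = 3 each), and Lum, Postn and S100a4 were at 0 in every library. Of 11 primitive endoderm markers 8 were tested, with 1 higher (Cubn) and 3 lower (Dab2, Lama1 and Col4a1), and they summed to 97.5 to 110 CPM treated and 227 to 302 CPM untreated. With the clone as a block Gata4 was also called in edgeR, for 2 higher, and DESeq2 called 1. Over all 13,869 genes tested 28.5% were higher and 28.6% lower. The fits with the clone as a block called 4725 of them higher in edgeR and 3676 in DESeq2. The part of these markers in the values below was not tested.

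All 10 AP-1 genes were higher after 4OHT (adjusted p below 0.05, edgeR quasi-likelihood test over 13,869 genes), where 28.5% of all genes tested were higher and 57.1% were called in either direction. Over all genes 3953 were higher and 3968 lower, and by library size 2408 were higher and 5681 lower, when 9 of the 10 AP-1 genes were still called higher. In 8 the log2 fold change was at least 1, against 6.83% of all genes, the exceptions being Jund and Atf3. In 9 of 10 every treated library lay above every untreated one, against 31.4% of all genes, and in Atf3 the groups overlapped. The median log2 fold change was 2.80 over the 10 genes and -0.00054 over all genes tested. TMM scaling tends to set the all-gene median near 0, and scaling by library size alone moved it by -0.20. The summed level of the 10 AP-1 genes was 964, 1085 and 1228 CPM in treated clones a, b and c. In untreated clones it was 146, 167 and 214 CPM, a ratio of means of 6.22. The labels do not say whether clones were cultured apart, so a p-value sets a difference against the spread of 3 libraries per group and no more.

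**Figure D1:**
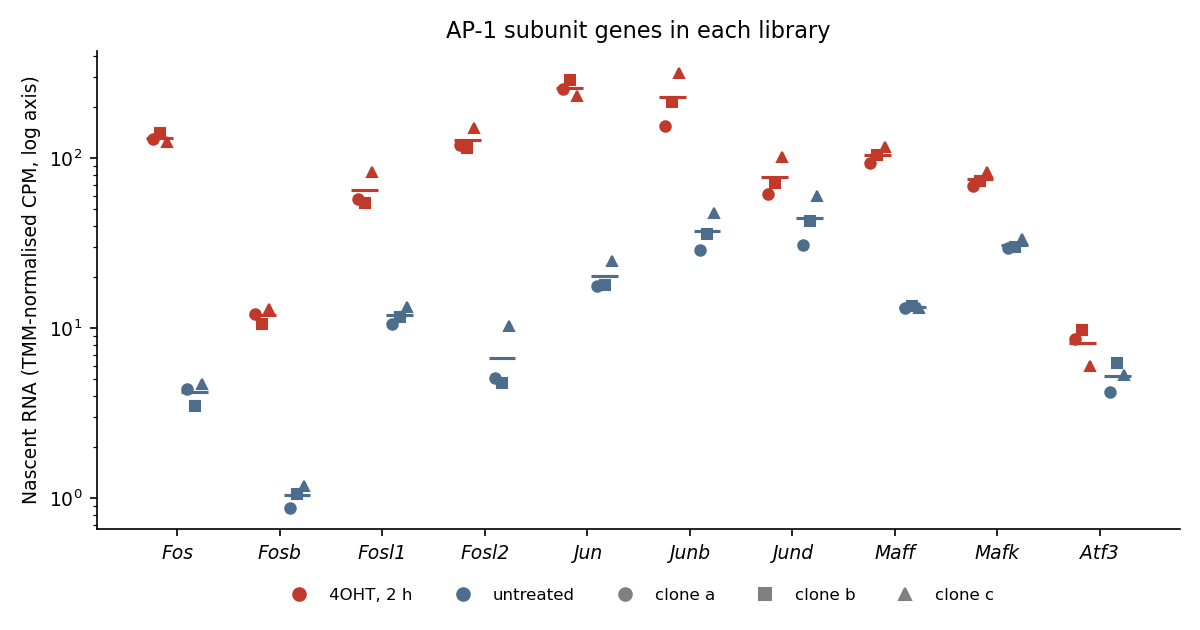
Level of each AP-1 gene in each library, in TMM-scaled CPM on a log axis, with 4OHT 2 h libraries to the left of untreated ones for each gene; points are clones and bars are group means. The groups are separate for 9 genes and overlap for Atf3, which had 5.98 to 9.76 CPM treated and 4.24 to 6.22 CPM untreated.

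Fos is the founding subunit of the FOS subfamily and had the largest change of the 10. It lies on the plus strand of chromosome 12 (GRCm38, as for all genes here, 85,473,890 to 85,477,273), in a span of 3384 bp with up to 4 exons per transcript, that no other gene in the table shares. Fos was at 130.2, 141 and 124 CPM in treated clones a, b and c and at 4.40, 3.49 and 4.70 CPM in untreated ones. The lowest treated library thus lay far above the highest untreated one, and the clones differed little within either group. On the log2 scale the difference was 4.98 ± 0.11 (SE, n = 3 per group, adjusted p = 2.48e-09), which is 31.6-fold, and it ranked 33rd among the rises of all genes tested. Within clones a, b and c the log2 change was 4.82, 5.26 and 4.66. Clone values, here and for the genes below, are differences of log2 CPM with a prior count of 2, a scale other than that of the edgeR estimate.

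The 250 bases before the Fos start (RefSeq, GRCm38.p6, chr12:85473640-85473889, plus strand) are shown because Fos gave the largest change. Capitals mark TATAAA, the core of a TATA box, 33 to 28 bases before the start.
Fos: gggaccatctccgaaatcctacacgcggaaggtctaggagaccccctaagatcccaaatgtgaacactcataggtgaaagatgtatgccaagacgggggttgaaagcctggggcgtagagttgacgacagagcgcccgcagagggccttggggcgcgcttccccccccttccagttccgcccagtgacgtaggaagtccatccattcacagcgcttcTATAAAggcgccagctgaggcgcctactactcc
Of 32,851 promoter windows of this length in the table of promoters, 12.4% held TATAAA on either strand. Fos was the only one of the 9 AP-1 genes with a promoter entry (11 entries in all) whose window held it.

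Fosl2, which encodes FRA2, was the second most changed gene of the FOS group. It lies at chromosome 5, 32,135,801 to 32,157,842, plus strand, and no listed gene overlaps it. Fosl2 had 119.8, 115 and 149.7 CPM in treated clones a, b and c, against 5.12, 4.78 and 10.3 CPM in untreated ones. Clone c was highest in both groups, and the groups were far apart. Its log2 fold change was 4.29 ± 0.22 (SE, adjusted p = 2.08e-07), 19.5-fold, with 4.49, 4.53 and 3.84 within clones a, b and c. In the edgeR fit with the clone as a block the adjusted p of Fosl2 was 3.87e-17.

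Fosb had the lowest level of the FOS genes, per kb of exons as well as per kb of gene span, in treated and in untreated cells. It lies on the minus strand of chromosome 7 (19,302,696 to 19,310,051) and overlaps no listed gene. Fosb was at 12.1, 10.6 and 13 CPM in treated clones a, b and c, from 106, 86 and 89 counts, and at 0.880, 1.06 and 1.17 CPM in untreated ones, from 11, 14 and 12 counts. The groups did not overlap, and all untreated libraries were above the level of 3 counts. The log2 fold change was 3.51 ± 0.20 (SE, adjusted p = 3.76e-07), 11.4-fold, with 3.51, 3.10 and 3.26 within clones a, b and c.

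Fosl1 encodes FRA1, a subunit whose protein is stabilised by ERK signalling and which is known for its role in invasive tumour cells. It lies at chromosome 19, 5,447,547 to 5,455,946, plus strand, and 2767 of its 8400 bp are shared with Ccdc85b. Fosl1 had 57.6, 54.2 and 82.7 CPM in treated clones a, b and c and 10.6, 11.7 and 13.4 CPM in untreated ones. The groups did not overlap, and clone c was highest in both. Its log2 fold change was 2.44 ± 0.17 (SE, adjusted p = 1.36e-06), 5.44-fold, the smallest of the FOS genes, and within clones a, b and c it was 2.41, 2.20 and 2.61. In the edgeR fit with the clone as a block the adjusted p of Fosl1 was 2.3e-14. Ccdc85b had a log2 fold change of -0.28 ± 0.21 (SE, adjusted p = 0.273).

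The 4 FOS genes summed to 319.6, 321 and 369.5 CPM in treated clones a, b and c and to 21.1, 21 and 29.6 CPM in untreated ones, a ratio of means of 14.1. Shares within the group were taken per kb of merged exons, since a longer gene gives more reads. Fos made up 56.5, 59.8 and 47.5% of the FOS reads per kb in treated clones, against 24.1, 18.8 and 20.3% in untreated ones. Fosl1 made up 28.9, 26.6 and 36.7% in treated clones, against 67.3, 72.8 and 67.0% in untreated ones. On this scale Fos led in every treated library and Fosl1 in every untreated one. Fosl2 had a share of 12.8 ± 1.05% in treated and 7.95 ± 2.47% in untreated cells (SD, n = 3 each), and Fosb had 1.85 ± 0.141% in treated and 1.96 ± 0.176% in untreated cells. For Fos, Fosl1 and Fosl2 the exact two-sided permutation p was 0.1, the smallest that 3 against 3 libraries can give (0.117 adjusted over the 7 FOS and JUN shares), and for Fosb it was 0.5.

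Those shares depend on the length by which reads are divided. In this table, protein-coding genes lying within an intron of another listed gene were at 0 in all libraries for 356 of 358 on the opposite strand and for 184 of 185 on the same strand, against 2399 of 17,157 that overlap no listed gene. Such values would arise if reads were counted over whole gene spans, without strand, and dropped where genes overlap, so levels per kb of span are given beside those per kb of exons. Per kb of span, Fos held 72.0 ± 4.90% of the FOS reads in treated and 40.02 ± 3.99% in untreated cells (SD, n = 3 each), and Fosl1 held 14.3 ± 3.22% in treated and 45.9 ± 3.58% in untreated cells. Both differences kept their direction, but in untreated clone a Fos (44.5%) and Fosl1 (43.4%) were then about level. The Fosl2 share per kb of span was 10.7 ± 1.44% in treated and 9.55 ± 2.91% in untreated cells, within the spread (exact permutation p = 0.6). The shared bases of Fosl1 are part of its length, so its level per kb of span is a lower estimate where reads there were dropped.

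**Figure D2:**
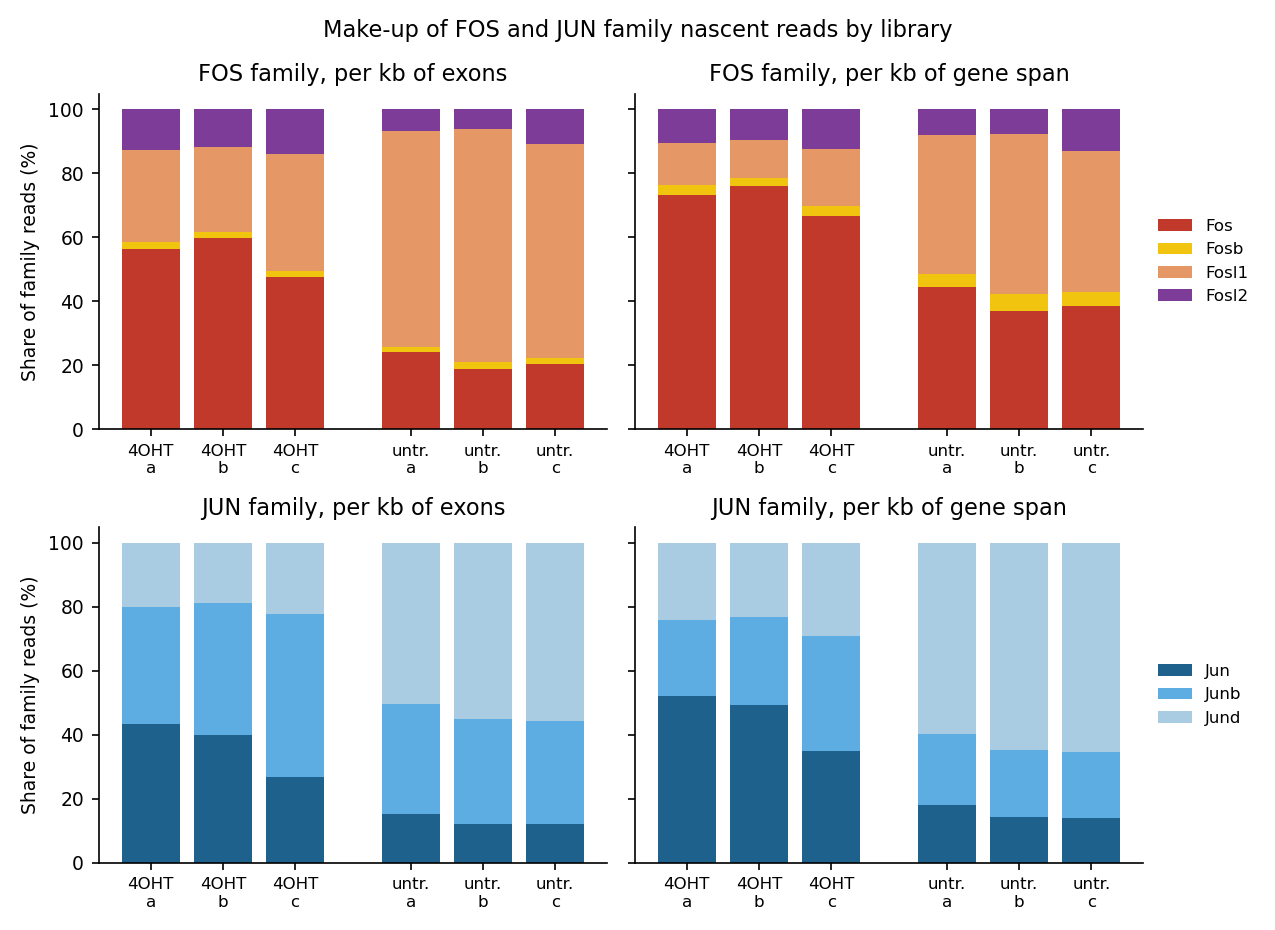
Stacked share of each FOS gene (top) and each JUN gene (bottom) in its group's reads, in percent, per kb of merged exons (left) and per kb of gene span (right); each bar is 1 library, with 4OHT 2 h libraries left of untreated ones. Per kb of exons Fos made up 47.5 to 59.8% of the FOS reads in treated and 18.8 to 24.1% in untreated libraries, and Jund made up 18.8 to 22.3% of the JUN reads in treated and 50.5 to 55.8% in untreated libraries.

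Jun is the founding JUN subunit, the usual partner of FOS, and its protein is activated by JNK. It is a gene with 1 exon at chromosome 4, 95,049,034 to 95,052,222, minus strand. Its antisense gene Junos is not listed in the table, so reads of the antisense RNA cannot be told apart from those of Jun. Jun had 256, 289.8 and 233 CPM in treated clones a, b and c, against 17.8, 18 and 24.8 CPM in untreated ones. Every treated library lay far above every untreated one. On the log2 scale the difference was 3.69 ± 0.13 (SE, adjusted p = 2.15e-08), 12.9-fold, with 3.83, 3.99 and 3.22 within clones a, b and c.

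Junb encodes a JUN protein that activates less strongly than JUN at many sites and can hold back its activity. It lies on the minus strand of chromosome 8 (84,974,484 to 84,978,718), sharing 351 of 4235 bp with Prdx2, which had a log2 fold change of -0.57 ± 0.17 (SE, adjusted p = 0.016). Junb had 155, 215 and 319 CPM in treated clones a, b and c and 28.9, 35.6 and 47.6 CPM in untreated ones. Clone c was highest and clone a lowest in both groups, and the groups did not overlap. The log2 fold change was 2.62 ± 0.25 (SE, adjusted p = 1.30e-05), 6.17-fold, and within clones a, b and c it was 2.42, 2.59 and 2.74. That SE includes the level differences between clones, and the edgeR fit with the clone as a block gave an adjusted p of 2.74e-17.

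Jund, known as the subunit made steadily in resting cells, had a smaller change. It is a gene with 1 exon at chromosome 8, 70,698,949 to 70,700,616, plus strand, and the antisense gene Gm11175, not listed in the table, overlaps it. Jund had 61.7, 71.2 and 101 CPM in treated clones a, b and c and 30.8, 42.9 and 59.9 CPM in untreated ones. The lowest treated library (clone a) lay just above the highest untreated one (clone c), while each clone was higher after 4OHT than without. On the log2 scale the difference was 0.81 ± 0.23 (SE, adjusted p = 0.0116), 1.75-fold, and 1.00, 0.73 and 0.75 within clones a, b and c. With the clone as a block the adjusted p was 1.80e-09, and without clone b the log2 fold change was 0.85 and the call was lost (adjusted p = 0.0796).

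The 3 JUN genes summed to 473, 576 and 653 CPM in treated clones a, b and c and to 77.5, 96.6 and 132 CPM in untreated ones, a ratio of means of 5.56. Per kb of exons, Jund held 20.4 ± 1.76% of the JUN reads in treated and 53.7 ± 2.85% in untreated cells (SD, n = 3 each). Jun held 36.7 ± 8.78% in treated and 13.1 ± 1.82% in untreated cells, and Junb 42.9 ± 7.34% in treated and 33.2 ± 1.09% in untreated cells. On this scale Jund gave more than the other JUN genes in each untreated library and the least in each treated one. For each of these shares treated and untreated libraries did not overlap (exact two-sided permutation p = 0.1, the smallest possible, 0.117 adjusted over 7). Per kb of span Jund held 25.4 ± 3.16% in treated and 63.3 ± 3.01% in untreated cells. With RefSeq spans, a length chosen after seeing the data and longer for Jund (2878 bp) and shorter for Junb (1840 bp), Jund held 11.5 ± 0.923% in treated and 36.3 ± 2.53% in untreated cells. Junb then had the largest share in untreated cells too (52.4 ± 8.32% treated, 48.4 ± 0.810% untreated), with a difference within the spread (exact permutation p = 0.7). The Junb difference, 9.74 percentage points per kb of exons, was 5.20 without clone c and 2.98 with no division by length (exact permutation p = 0.7).

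Maff encodes a small MAF protein that dimerises with CNC factors and with FOS at MAF recognition elements and antioxidant response elements. It lies at chromosome 15, 79,346,621 to 79,359,076, plus strand, and overlaps no listed gene. Maff had 93.9, 104 and 117 CPM in treated clones a, b and c and 13.2, 13.6 and 13.2 CPM in untreated ones. The untreated libraries were nearly equal, and all treated ones lay well above them. Its log2 fold change was 2.97 ± 0.10 (SE, adjusted p = 1.55e-08), 7.85-fold, and within clones a, b and c it was 2.81, 2.92 and 3.12.

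Mafk, another small MAF gene, lies at chromosome 5, 139,791,513 to 139,802,653, plus strand, and shares 169 bp with Tmem184a. Mafk had 69.0, 73.8 and 82.5 CPM in treated clones a, b and c and 29.5, 29.9 and 33.4 CPM in untreated ones, with no overlap. The log2 fold change was 1.28 ± 0.09 (SE, adjusted p = 1.47e-06), 2.43-fold, with 1.22, 1.30 and 1.30 within clones a, b and c. Its 95% interval (1.08 to 1.48) did not overlap that of Maff (2.76 to 3.19). Mafg, the remaining small MAF gene and no member of the 10, had a log2 fold change of 0.29 ± 0.07 (SE, adjusted p = 0.0044), with 107 ± 3.42 CPM in treated and 87.4 ± 4.96 CPM in untreated cells (SD, n = 3 each).

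Atf3, best known as a gene switched on by stress, showed the smallest change of the 10. It lies at chromosome 1, 191,170,296 to 191,218,039, minus strand, and holds Gm24748, which is not listed in the table. Atf3 had 8.67, 9.76 and 5.98 CPM in treated clones a, b and c, from 76, 79 and 41 counts, against 4.24, 6.22 and 5.28 CPM in untreated ones, from 53, 82 and 54 counts. The groups overlapped, since treated clone c lay below untreated clone b. Its log2 fold change was 0.64 ± 0.21 (SE, adjusted p = 0.0261), 1.56-fold, and within clones a, b and c it was 1.00, 0.63 and 0.17. The call was lost when libraries were scaled by size alone (0.44, adjusted p = 0.0990) and without clone a (0.46, adjusted p = 0.196) or clone b (0.64, adjusted p = 0.0973). It was also lost without treated clone a (adjusted p = 0.0775), treated clone b (0.118) or untreated clone a (0.0901), while with the clone as a block it held in edgeR (0.00305) and not in DESeq2 (0.0512).

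**Figure D3:**
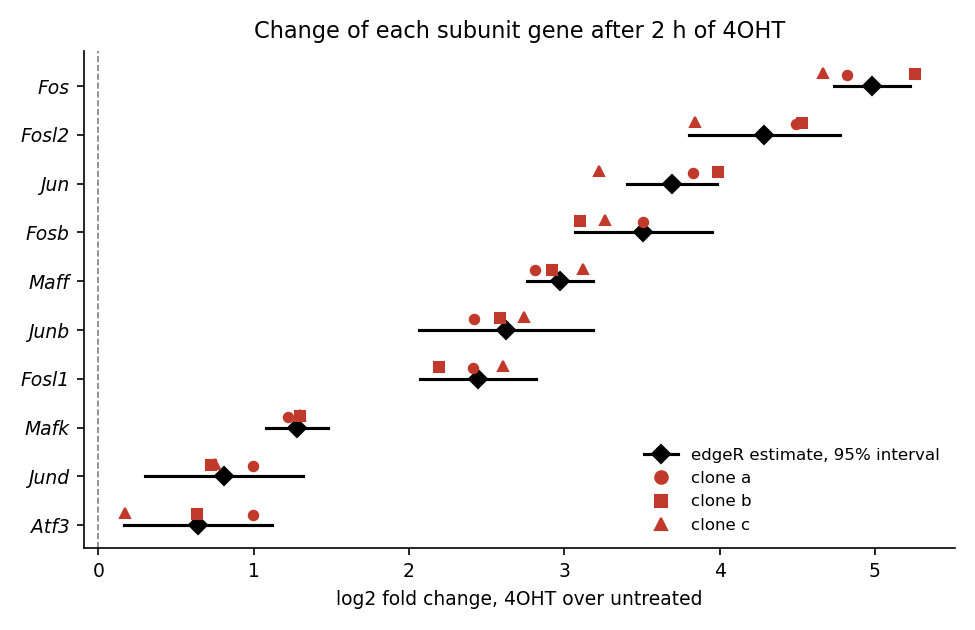
Log2 fold change of each AP-1 gene after 4OHT against untreated, with its 95% interval, beside the change within each clone (log2 CPM with a prior count of 2). Fos (4.98) and Fosl2 (4.29) stand highest, Jund (0.81) and Atf3 (0.64) lowest, and every clone's value is above 0.

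The longer AP-1 and CRE form TGACNTCA, which JUN and ATF pairs are known to bind, was found in windows of Jun and Maff. The windows of 250 bases that hold it are shown because the Jun copy is like the site through which JUN is known to act on its own gene in human cells. Capitals mark the match, which is 45 to 38 bases before the start in Jun (chr4:95052223-95052472, minus strand), 29 to 22 bases before start 2 of the 3 listed Maff starts (chr15:79347270-79347519, plus strand) and 45 to 38 bases before start 3 (chr15:79348152-79348401, plus strand), all from RefSeq on GRCm38.p6.
Jun: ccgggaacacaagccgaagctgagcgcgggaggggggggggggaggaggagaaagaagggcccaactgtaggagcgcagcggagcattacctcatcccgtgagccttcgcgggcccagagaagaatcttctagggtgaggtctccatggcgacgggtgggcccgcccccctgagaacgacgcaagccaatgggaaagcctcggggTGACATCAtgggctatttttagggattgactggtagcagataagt
Maff start 2: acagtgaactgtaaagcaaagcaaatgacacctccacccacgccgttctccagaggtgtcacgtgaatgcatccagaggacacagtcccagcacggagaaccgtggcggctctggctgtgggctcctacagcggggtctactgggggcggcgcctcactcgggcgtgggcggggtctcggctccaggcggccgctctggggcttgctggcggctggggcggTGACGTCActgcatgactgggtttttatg
Maff start 3: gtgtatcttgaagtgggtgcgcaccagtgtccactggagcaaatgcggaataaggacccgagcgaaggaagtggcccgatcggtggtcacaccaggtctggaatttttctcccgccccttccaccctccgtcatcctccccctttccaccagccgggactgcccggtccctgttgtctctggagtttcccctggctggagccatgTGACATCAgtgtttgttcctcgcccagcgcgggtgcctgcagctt
On either strand, 7.49% of the 32,851 windows held TGACNTCA. The shorter AP-1 site TGANTCA (6.75% of windows) and the CArG box, the SRF site (1.47% of windows), were in none of the 11 windows, and the ETS core CCGGAA (12.03%) was in that of Mafk, 19 to 14 bases before its start. Bases further than 250 before a start were not searched, so an absent match, as of the CArG box in Fos, does not show that a promoter lacks the site. A match is a description of these letters in these windows and was not set against the fold changes.

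Levels of different genes can be compared only per length, here as CPM per kb of span. In treated cells Jun averaged 81.3, Junb 54.3, Jund 46.8 and Fos 38.9 CPM per kb, and neighbours in that order had overlapping libraries. Maff at 8.42, Fosl1 at 7.72, Mafk at 6.74 and Fosl2 at 5.82 CPM per kb followed, again with overlapping neighbours, and then came Fosb at 1.62 and Atf3 at 0.170 CPM per kb. In untreated cells Jund led with 26.7 CPM per kb, above Junb at 8.82 and Jun at 6.33, whose libraries overlapped. Below these stood Mafk at 2.78, Fosl1 at 1.42, Fos at 1.24, Maff at 1.07, Fosl2 at 0.305, Fosb at 0.141 and Atf3 at 0.110 CPM per kb, with overlap between Fosl1 and Fos, between Fos and Maff and between Fosb and Atf3. The annotated Atf3 span is long (47,744 bp, against 13,038 bp in RefSeq). The Jund span is 1668 bp against 2878 bp in RefSeq, and the Junb span 4235 bp against 1840 bp. Levels per kb of these genes thus depend on the annotation. Per kb of RefSeq span, a length chosen after seeing the data, Junb led in treated cells at 125, above Jun at 81.4 CPM per kb. Junb then led in untreated cells too, at 20.3, above Jund at 15.5 CPM per kb. In both cases the libraries overlapped. Per kb of exons the treated order began with Junb at 99.9 and Jun at 81.3 CPM per kb, Fos followed at 56.0, and in untreated cells Fos was among the lowest at 1.78 CPM per kb.

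Clones differed in the level of some of these genes. In the fit with treatment and clone, the clone terms tested together passed in 4 of 10 (edgeR quasi-likelihood test), against 12.6% of all genes tested: Junb (adjusted p = 6.60e-07), Jund (6.12e-06), Fosl1 (0.00411) and Fosl2 (0.00623). In each of these 4 genes clone c was highest in treated and in untreated cells alike. The same held for Fosb and Mafk, whose clone terms did not pass (adjusted p = 0.724 and 0.130, same test). Over all genes, too, clone c stood apart. Between libraries of a group, chi-square per gene was 5.38 to 11.3 for pairs with clone c, against 2.29 and 2.44 for clones a and b. The highest library was 2.05 times the lowest for Junb in treated cells and 1.65 times in untreated cells, while for Jund it was 1.64 times in treated and 1.94 times in untreated cells. For Fos the adjusted p of the clone terms was 0.652 and for Jun 0.574. The DESeq2 likelihood ratio test called 2 of these genes, Junb and Jund. With 1 library per clone and treatment, whether the response itself differed between clones could not be tested.

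**Figure D4:**
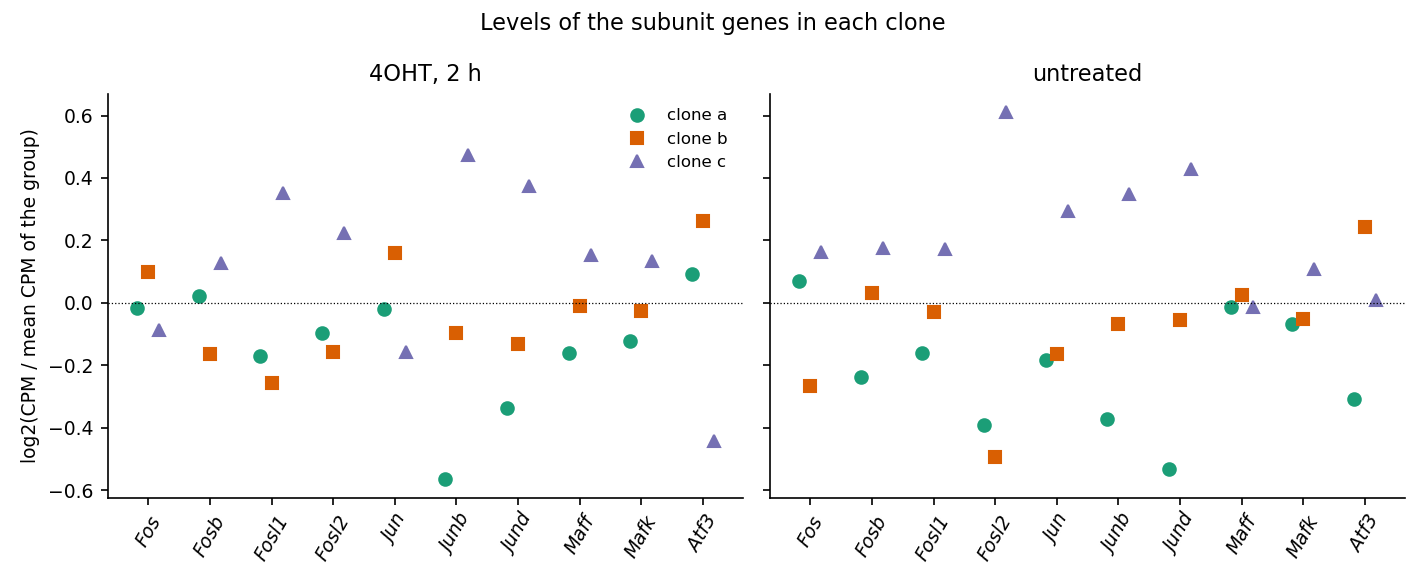
Level of each AP-1 gene in clones a, b and c relative to the mean of its group, on the log2 scale, with 4OHT 2 h libraries to the left of untreated ones. In Junb, Jund, Fosl1 and Fosl2, and also in Fosb and Mafk, the points of clone c are the highest in both groups.

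The genes whose levels over the 6 libraries were most like those of 1 gene per subfamily were found by the Euclidean distance of log2 CPM, each gene centred on its own mean. Nearest to Fos were Nab1, a corepressor of EGR factors, at a distance of 0.340, Egr2, an immediate early zinc finger gene, at 0.369, and Spry4, an inhibitor of receptor tyrosine kinase signalling, at 0.434. Their log2 fold changes were 5.15 ± 0.11, 5.14 ± 0.15 and 5.16 ± 0.15 (SE). The distance includes the difference between treated and untreated libraries, so fold changes near that of Fos follow from the choice. Nearest to Jun were Kcnmb4 (0.283), Nrp2 (0.422) and Sgms2 (0.470), and nearest to Maff were Clu (0.215), Hrh1 (0.318) and Igfbp6 (0.337), the last of which had only 3 counts over the untreated libraries. Nearest to Atf3 were Fscn2 (0.239), Htr1f (0.285) and Mpped2 (0.353), of which Fscn2 was not called (adjusted p = 0.0910, edgeR quasi-likelihood test). The AP-1 genes themselves were left out of that search, and the closest other AP-1 gene was Fosl2 for Fos (1.09), Fosb for Jun (0.685) and for Maff (0.536), and Mafk for Atf3 (1.12).

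Among 43 other bZIP genes, which include further partners of FOS, JUN and small MAF, 37 were tested. Of these, 15 were higher and 6 lower, where 28.5% of all genes tested were higher and 28.6% lower. The median log2 fold change was 0.17. The smallest adjusted p belonged to Bach2, a CNC repressor that pairs with small MAF, with 42.6 ± 3.52 CPM in treated and 11.5 ± 0.817 CPM in untreated cells (SD, n = 3 each; log2 fold change 1.89 ± 0.10, SE, adjusted p = 3.41e-07). Ddit3, the stress factor CHOP, had a log2 fold change of 2.40 ± 0.13, Creb5 of 1.72 ± 0.13 and the CNC gene Nfe2l3 of 1.34 ± 0.10 (SE). Bach1, the other BACH repressor, rose by 1.31 ± 0.11. The 6 lower genes, named like Bach1 after their values were seen, were Hlf (-2.63 ± 0.31), Creb3l2 (-1.88 ± 0.15), Batf2 (-1.21 ± 0.25), Dbp (-1.08 ± 0.28), Tef (-0.67 ± 0.11) and Creb1 (-0.21 ± 0.07). Of these Hlf, Dbp and Tef are the PAR bZIP genes. Jdp2, a JUN partner that represses, had a log2 fold change of -0.12 (adjusted p = 0.625), and Batf and Batf3 were too low to be tested.

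**Figure D5:**
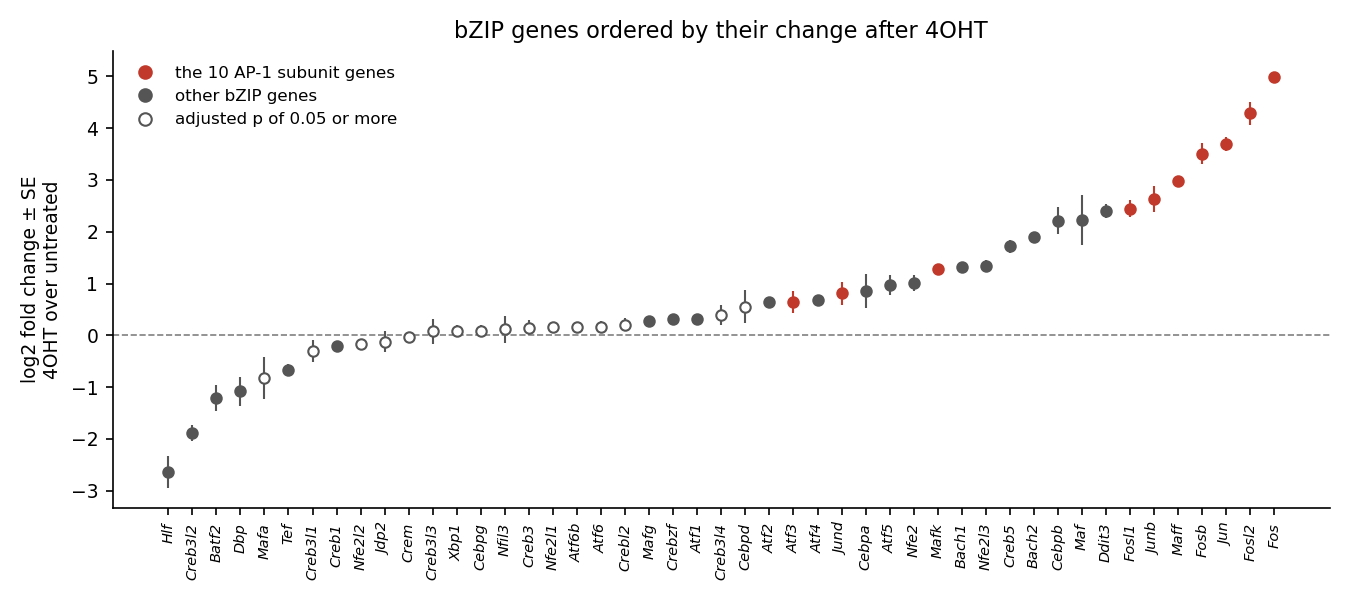
Log2 fold change after 4OHT against untreated, with SE, of the 10 AP-1 genes (red) and of the 37 other bZIP genes tested (grey, open where the adjusted p was 0.05 or more), ordered by size. The AP-1 genes have a median of 2.80 and the other bZIP genes one of 0.17, and Hlf (-2.63) is the lowest of all.

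Of 18 kinase genes known to act on AP-1 or its regulators, 17 were tested. Among those 7 were higher and 6 lower (median log2 fold change 0.11), where 28.5% of all genes tested were higher and 28.6% lower. Without clone b 4 kinase genes were higher, when 2713 of all 13,984 genes then tested were higher, against 3953 of 13,869 with it. Rps6ka3, which encodes the ERK-activated kinase RSK2, had 132 ± 4.52 CPM in treated and 49.2 ± 4.91 CPM in untreated cells (SD, n = 3 each), a log2 fold change of 1.42 ± 0.08 (SE, adjusted p = 3.7e-07). Map2k4 (0.57 ± 0.07), Mapk8, which encodes the JUN kinase JNK1 (0.51 ± 0.07), and Gsk3a (0.50 ± 0.07) rose less, and Mapk9, which encodes JNK2 and was named after its value was seen, fell by 0.65 ± 0.10 on the log2 scale. Of 9 symbols listed for SRF, ternary complex factors and other SRF cofactors, 7 were in the table and all of these were tested. The missing symbols, Mrtfa and Mrtfb, are other names of Mkl1 and Mkl2. Of the 7 genes 3 were higher (median -0.01), where 28.5% of all genes tested were. The 3 were Elk4 (0.99 ± 0.08), which encodes the ternary complex factor SAP1, Srf itself (0.58 ± 0.10) and the cofactor gene Mkl2 (0.33 ± 0.06). By library size the call of Mkl2 was lost (0.13, adjusted p = 0.126) and 2 genes of this list were lower, among them Elk1 (-0.45, adjusted p = 0.0316).

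Of 14 symbols listed for the turnover of FOS and JUN proteins or mRNAs, 13 were in the table and 12 were tested. The missing symbol, Rfwd2, is another name of Cop1. Of the 12 genes 5 were higher and 2 lower (median log2 fold change 0.15), where 28.5% of all genes tested were higher and 28.6% lower. With the clone as a block 8 were higher in edgeR and 6 in DESeq2. In those fits 4725 and 3676 of all 13,869 genes tested were higher, against 3953 in edgeR without the block. The 3 genes of the ZFP36 family, which bind AU-rich elements such as those of Fos mRNA and promote its decay, all rose: Zfp36 (2.03 ± 0.17), Zfp36l1 (1.75 ± 0.11) and Zfp36l2 (1.47 ± 0.09). Trib1, an adaptor of the ubiquitin ligase COP1, had 56.4 ± 2.74 CPM in treated and 17.2 ± 0.605 CPM in untreated cells (SD, n = 3 each; log2 fold change 1.72 ± 0.08, SE). Usp28, a deubiquitinase, rose by 0.56 ± 0.07, while Trib2 fell by 1.21 ± 0.25 and Det1, a partner of COP1, fell by 0.76 ± 0.14. Fbxw7, a ligase for JUN, is listed at 0 in every library. Whether its reads were kept in the counting was not tested, so this does not show that the gene was silent.

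Of 32 genes known as AP-1 targets in other cells, 23 were tested. Of these, 14 were higher and 4 lower, where 28.5% of all genes tested were higher and 28.6% lower. The median log2 fold change was 0.50. Plaur, the urokinase receptor, had 515 ± 103 CPM in treated and 26.7 ± 2.82 CPM in untreated cells (SD, n = 3 each; log2 fold change 4.27 ± 0.15, SE). Ptgs2, which encodes COX2, rose by 3.96 ± 0.24. Lor, an epidermal envelope gene, had 1219 counts over the treated and 3 over the untreated libraries. The 4 lower genes were Bcl3 (-1.55 ± 0.14), Lif (-1.50 ± 0.19), the cyclin gene Ccnd1 (-1.36 ± 0.21) and Ezr (-0.21 ± 0.07). Mmp3, Mmp10 and Mmp13, matrix proteases often used as AP-1 reporters in fibroblasts, were too low to be tested, with at most 2 counts over either group.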

How the data were processed

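The deposited values are raw counts: whole numbers of reads for each gene, which the authors had not normalized. Per the submitters' processing notes, STAR, featureCounts and the mm10 build were used. The sources used here give no versions and do not say whether exons or strand were used in counting. Genes inside introns of listed genes were nearly all at 0 on either strand, so antisense and overlapping genes are named beside a value they touch. Positions came from GENCODE M21 (GRCm38, the assembly of mm10), in which 25,557 of 25,899 symbols were found once. Promoter windows came from RefSeq (GRCm38.p6), with 11 entries for 9 of the 10 genes.

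The test was edgeR 4.0.16 (R 4.3.3): filterByExpr (minimum count 10, minimum total 15) kept 13,869 genes, TMM scaled the libraries, and glmQLFit and glmQLFTest compared 3 treated with 3 untreated libraries. P-values were adjusted by Benjamini-Hochberg over all genes tested and called below 0.05. Log2 CPM used a prior count of 2. Tested on simulated data for this comparison (13,675 genes), the fit recovered 43 of 50 genes with a simulated log2 fold change of 1, 50 of 50 with 2, and called 14 of 13,475 unchanged genes. Only 200 genes were changed there, as many up as down, and no clone differences were simulated. In the data 57.1% of genes were called, so the simulation does not give the rate of false calls here. The clone letters in the labels pair the libraries: the correlation of their deviations from the group means was 0.282 in clone a, 0.165 in clone b and 0.357 in clone c, and -0.283 to 0.0682 between clones. The fit with the clone as a block was an alternative. No library was a copy of another, since chi-square per gene was 2.29 to 11.3 within groups.

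Besides the 10 AP-1 genes, from each list the (up to) 4 genes of smallest adjusted p, and any gene that a count of 5 or fewer called for, were named, with the 3 nearest genes to Fos, Jun, Maff and Atf3 (leaving out symbols of predicted genes). A gene that this rule allows is not reported here. The AP-1 genes and all lists were chosen with earlier results of these data known. Alternatives were DESeq2 1.42.0 and its size factors, library size, limma-voom (limma 3.58.1), other filters, thresholds and prior counts, each library and clone left out, and other lengths. The limits given for a count of 0 cover counting error alone, as reads had no molecular identifiers.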

Additional observations from a re-analysis of the deposited data

How the results depend on the processing

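Of 10 AP-1 genes called higher, 9 were called by library size and with the replicate block (the clone) in DESeq2, 10 with the replicate block in edgeR, 8 at an adjusted p below 0.01, 8 with a log2 fold change of at least 1, and 8 to 10 with a library or clone left out. The genes lost were Jund and Atf3, and the log2 fold change of Atf3 ranged over 0.44 to 0.81 (adjusted p 0.00305 to 0.196) across the alternatives. The other 8 were called in each of 19 alternatives, and none of the 10 changed direction. Over all genes 3953 were higher and 3968 lower, against 2408 higher and 5681 lower by library size. The replicate block gave 4725 higher in edgeR and 3676 in DESeq2. At an adjusted p below 0.01, 3058 genes in all were higher, and 2713 to 4159 with a library or clone left out. With a log2 fold change of at least 1, 947 were higher and 1324 lower. In the 5 other gene lists that threshold left 22 of 44 higher and 8 of 18 lower genes. Clone differences were called in 4 AP-1 genes and 1741 genes in all, and by the DESeq2 likelihood ratio test in 2 and 598, with 944 genes in all at an adjusted p below 0.01. Differences in share, treated minus untreated in percentage points, moved with the length: for Fos 33.6 per kb of exons and 21.6 without length, and for Fosl1 -38.3, against -31.6 by span, -31.8 by RefSeq span and -31.4 without length. For Fosl2 they were 4.86, against 1.19, 1.27 and 10.7 on those scales, for Jund -33.4, against -37.9, -24.8 and -29.5, and for Junb 9.74, against 7.92, 4.06 and 2.98 (5.20 to 13.5 with a clone left out). For Fosb -0.11 became -1.58, -1.53 and -0.867, and without clone b it reversed to 0.0633 (range with a clone left out -0.247 to 0.0633). The RefSeq span was added after seeing the data. Fosb and Atf3 rest on 11 to 106 counts per library. The untreated libraries also held few counts of Fos (46 to 55) and Fosl2 (63 to 105).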
